A study of Mus musculus with 4 samples.

Results

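T cells recognise antigen through a surface receptor that each cell builds once, by joining gene segments during its development. Most carry an alpha and a beta chain, and each chain joins 1 variable (V) segment to joining segments and a constant region, the beta chain with a diversity segment between them. The V segment supplies much of the part that touches antigen, so the V segment in a T cell's transcripts is a partial label of the clone it belongs to. A T cell usually uses 1 beta chain, whereas transcripts of a second alpha chain are common. The 163 genes described here are all those of the mouse feature list, out of 32285, whose symbol starts with Trav (128 alpha V segments) or Trbv (35 beta V segments).

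The transcripts come from 2 single-cell libraries of mouse heart, each made from the pooled hearts of 4 C57BL6J mice. The mice had been treated with a rat IgG antibody (isotype library) or with an agonist antibody that activates CD40 (anti-CD40 library), the receptor on antigen-presenting cells through which helper T cells signal. In CITE-seq, the assay used, transcripts and the DNA tags of bound antibodies are sequenced from the same cell barcode, and each original molecule is counted once by its molecular identifier (UMI). Age, sex, dose and time of treatment are not given in the sources used here. The sorted cells are described as live CD45+ cells in the sample labels and by DRAQ5 and DAPI in the series description, and the gate can set which T cells were captured. Each group was 1 library, so nothing below was tested between treatments. The 95% intervals given are exact and cover counting error alone. Effects of treatment and of the separate preparation of each library cannot be told apart.

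V segments were read in barcodes with at least 2 UMIs of the CD3 genes Cd3d, Cd3e and Cd3g together, which encode the signalling chains carried with every T cell receptor, at least 200 genes and under 10% mitochondrial UMIs. These are called Cd3 barcodes here. There were 101 in the isotype library, of 2558 barcodes that passed the filter (3.95%), and 376 of 4278 in the anti-CD40 library (8.79%). Many also held the complement genes C1qa, C1qb and C1qc, which are macrophage products. Cd3 barcodes with 9 or fewer C1q UMIs (C1q-low, 48 isotype and 175 anti-CD40) were therefore kept apart from those with 20 or more (C1q-high, 47 and 187), and 6 and 14 lay between. C1q-high Cd3 barcodes were deeper, with medians of 22290 and 23368 UMIs against 6055 and 6085 in the C1q-low class.

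Most C1q-low Cd3 barcodes held markers of alpha-beta T cells, but many also held markers of other cells. All 12 markers of alpha-beta T cells were detected in C1q-low Cd3 barcodes, at a sum of 3743 CPM (UMIs scaled to all gene UMIs of the class) in the isotype and 4744 CPM in the anti-CD40 library. At least 2 UMIs of these markers were found in 44 of 48 isotype (91.7%) and 167 of 175 anti-CD40 barcodes (95.4%). All 8 natural killer (NK) cell markers were detected there too, at 1939 and 3352 CPM, and Ncr1, an NK receptor gene, was found in 18.8% and 15.4% of these barcodes. At least 2 UMIs of the NK markers were found in 29 of 48 (60.4%) and 154 of 175 (88.0%). In the anti-CD40 library the NK sum was 3073 CPM in C1q-low barcodes with a V segment (Klra8 and Klra4 at 0) and 3450 CPM in those without. In the isotype library these were 682 and 2400 CPM. The NK sum was thus not limited to barcodes without a V segment. Phagocyte markers summed to 464 CPM (7 of 8 detected, Fcgr1 at 0) and 1504 CPM (8 of 8) in the C1q-low class, and to 9964 and 9030.5 CPM (8 of 8 in each) in the C1q-high class. Neutrophil markers (5 of 5 detected throughout) summed to 5461 and 2237 CPM in the C1q-low class and 3020 and 5274 CPM in the C1q-high class. At least 2 of their UMIs were found in 9 of 48 isotype (18.8%) and 116 of 175 anti-CD40 (66.3%) C1q-low barcodes, and in 42.6% and 86.1% of C1q-high ones. B cell markers in the C1q-low class summed to 722 CPM (6 of 6) and 54.1 CPM (4 of 6, Cd79a and Ms4a1 at 0). The part of cells that are not T cells, of free RNA, or of barcodes holding more than 1 cell, in the values below was not tested. The libraries shared 13 barcode sequences, 3 of them Cd3 barcodes in either library.

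Transcripts of V segments were rare beside those of the constant regions. In isotype C1q-low barcodes there were 13 Trav and 4 Trbv UMIs, beside 132 UMIs of Trac, the alpha constant gene, and 540 of Trbc1 and Trbc2, the beta constant genes. The anti-CD40 C1q-low class held 32 Trav, 36 Trbv, 481 Trac and 2529 Trbc UMIs. The C1q-high classes held 23 Trav and 11 Trbv UMIs in the isotype and 23 and 28 in the anti-CD40 library. For every 100 Trac UMIs there were thus between 3.73 (anti-CD40 C1q-high) and 18.1 (isotype C1q-high) Trav UMIs, and for every 100 Trbc UMIs between 0.741 and 1.96 Trbv UMIs. None of the 60 Traj, 14 Trbj or 2 Trbd segments listed had a UMI in any barcode of either library. The labels' protocol names a 5′ capture chemistry, while the tag names carry the suffix of a design for capture at the poly-A end. Which end of the transcripts was read was not tested, and no rearrangement beyond the V segment could be read.

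At least 1 V segment was found in 118 of the 477 Cd3 barcodes (24.7%, 20.9 to 28.9), a Trav in 63 and a Trbv in 66, with both in 11. A single V UMI was all that 86 of the 118 carriers held. By class the share with any V segment was 12 of 48 isotype C1q-low barcodes (25.0%, 13.6 to 39.6), 16 of 47 isotype C1q-high (34.0%, 20.9 to 49.3), 48 of 175 anti-CD40 C1q-low (27.4%, 20.97 to 34.7) and 38 of 187 anti-CD40 C1q-high (20.3%, 14.8 to 26.8). These intervals overlap. Trbv alone was found in 3 of 48 isotype C1q-low barcodes (6.25%, 1.31 to 17.2) and 31 of 175 anti-CD40 C1q-low barcodes (17.7%, 12.4 to 24.2), with intervals that also overlap.

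V transcripts lay mostly in Cd3 barcodes. Of the V UMIs in barcodes that passed the filter, Cd3 barcodes held 40 of 49 Trav UMIs (81.6%) and 16 of 19 Trbv UMIs (84.2%) in the isotype library. They held 56 of 62 (90.3%) and 64 of 75 (85.3%) in the anti-CD40 library. In barcodes with no CD3 UMI, any V segment was found in 0.377% (5 of 1328) and 0.241% (3 of 1246) of the C1q-low and 0.328% (3 of 914) and 0.454% (10 of 2204) of the C1q-high classes, isotype first, at median depths of 3312, 2656, 10098 and 12110.5 UMIs. Barcodes with exactly 1 CD3 UMI, just outside the rule, held a V segment in 3 of 110 isotype (2.73%) and 4 of 258 anti-CD40 cases (1.55%). Barcodes of B cell, neutrophil, endothelial and fibroblast type held 0 or 1 V carrier per type and library.

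Detection was also read at a common total depth, which can only lower it. Barcodes were thinned to 1000 UMIs in a single random draw, on which small counts depend. Of the 175 anti-CD40 C1q-low barcodes 6 were left out. A V segment then remained in 0 of 48 isotype C1q-low barcodes, where 3 counts would be 6.25% and the exact upper limit is 7.40%. It remained in 2 of 47 isotype C1q-high (4.26%), 15 of 169 anti-CD40 C1q-low (8.88%, 5.05 to 14.2) and 0 of 187 anti-CD40 C1q-high barcodes (3 counts would be 1.60%, exact upper limit 1.95%). Thinned alike, Trac was found in 6.38% of isotype and 11.2% of anti-CD40 C1q-high barcodes, against 27.1% and 36.1% of C1q-low ones. Equal total UMIs thus did not make receptor transcripts equal between the C1q classes.

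**Figure D1:**
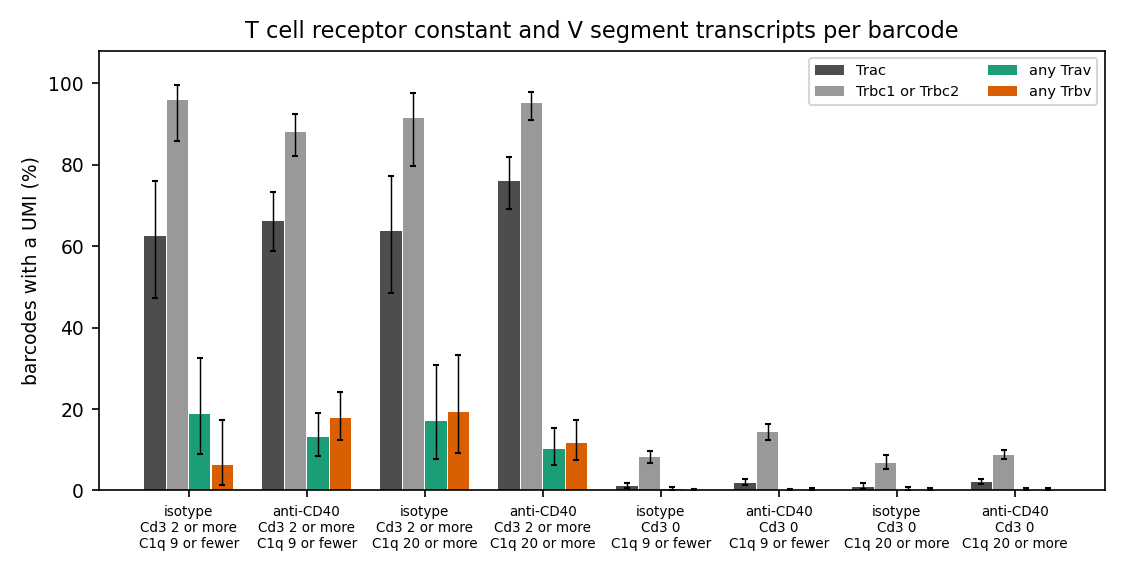
Share of barcodes (%, y axis) with at least 1 UMI of Trac, of Trbc1 or Trbc2, of any Trav and of any Trbv, by library, CD3 UMI class and C1q class, with exact 95% intervals for counting error as bars. Trac was found in 62.5% to 75.9% and any Trav in 10.2% to 18.8% of Cd3 barcodes, and V segments were near 0 in barcodes with no CD3 UMI.

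Trac was found in a larger share of V carriers than of Cd3 barcodes without a V segment in each library and C1q class. In anti-CD40 C1q-low barcodes Trac was found in 41 of 48 carriers (85.4%) and 75 of 127 others (59.1%), at near-equal median total depth (6176.5 and 6073 UMIs). Receptor transcripts were not matched, with medians of 15.5 and 11 CD3 UMIs and of 15 and 8 Trbc UMIs, carriers first. Medians of both were larger in carriers in each library and C1q class. Cd8a or Cd8b1, the genes of the CD8 coreceptor of killer T cells, was found in 85.4% and 63.0%. Ncr1 was found in 2 of 48 carriers (4.17%) and 25 of 127 others (19.7%). The isotype C1q-low class had Trac in 9 of 12 carriers and 21 of 36 others, and Ncr1 in 0 of 12 and 9 of 36. There the beta constant genes were found in 11 of 12 (91.7%) and 35 of 36 (97.2%), and Cd8a or Cd8b1 in 4 of 12 (33.3%) and 13 of 36 (36.1%), so not every receptor gene was more frequent in carriers. In the C1q-high class Trac was found in 81.2% of isotype carriers and 54.8% of others, and in 94.7% and 71.1% in the anti-CD40 library. Median depths in that class were 21968 and 22290 UMIs in the isotype and 27794.5 and 22449 UMIs in the anti-CD40 library, carriers first. Ncr1 was near equal there, in 6.25% of isotype carriers and 6.45% of others and in 10.5% and 11.4% in the anti-CD40 library. Of all 118 carriers, 16 held no Trac UMI and 2 held neither Trac nor Trbc.

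Of the 35 Trbv segments, 18 were detected in Cd3 barcodes, 9 in the isotype library, 16 in the anti-CD40 library and 7 in both, and 17 were found in none. By RefSeq's classes for GRCm38.p6, 22 of the 35 are functional segments and 13 pseudogenes, and those detected were 17 of the 22 and 1 of the 13. The detected segment that RefSeq lists as a pseudogene was Trbv29 (2 barcodes), and that listing was not checked here. The Trbv genes lie on chromosome 6 from Trbv1 (40891296 to 40891885) to Trbv31 (41557693 to 41558371), which is placed past the constant genes. Of the 18, 4 were found in 1 barcode, 5 in 2 and 9 in 3 or more.

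Trbv3 (ENSMUSG00000076463, GRCm38.p6 chromosome 6, 41048394 to 41048824), listed by RefSeq also as Tcrb-V16, was the segment found in the most barcodes, 16 with 19 UMIs. It was found in 0 of 48 isotype C1q-low barcodes (3 counts would be 6.25%, exact upper limit 7.40%), 2 of 47 isotype C1q-high (4.26%, 0.5196 to 14.5), 9 of 175 anti-CD40 C1q-low (5.14%, 2.38 to 9.54) and 5 of 187 anti-CD40 C1q-high barcodes (2.67%, 0.874 to 6.13). It was found in no barcode without CD3 UMIs. These intervals overlap, and the difference between libraries was not tested.

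All 16 Trbv3 carriers were CD8 barcodes by surface tag, that is with 10 or more UMIs of the CD8a tag and fewer than 10 of the CD4 tag (CD4 barcodes are the reverse). Of the 50 other Trbv carriers, 32 were (64.0%, 49.2 to 77.1). These counts pool the libraries, and 14 of the 16 Trbv3 carriers were in the anti-CD40 library. By library, CD8 barcodes were 6 of 13 isotype and 42 of 53 anti-CD40 Trbv carriers, Trbv3 included. CD8 barcodes made up 39 of 101 isotype (38.6%) and 275 of 376 anti-CD40 Cd3 barcodes (73.1%), and CD4 barcodes 33 (32.7%) and 26 (6.91%). Within CD8 barcodes Trbv3 was found at much the same share in both libraries, 2 of 39 isotype barcodes (5.13%, 0.627 to 17.3) and 14 of 275 anti-CD40 barcodes (5.09%, 2.81 to 8.39). Among the 59 CD4 barcodes of both libraries it was found in 0, where 3 counts would be 5.08% and the exact upper limit is 6.06%. The cut of 10 tag UMIs was chosen after the values were seen.

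Trbv13-2 (ENSMUSG00000076469, chromosome 6, 41121396 to 41121832; Tcrb-V8.2) was found in 10 barcodes with 1 UMI each, 2 in the anti-CD40 C1q-low class (1.14%, 0.139 to 4.07) and 8 in the anti-CD40 C1q-high class (4.28%, 1.87 to 8.26). It was at 0 in the isotype C1q-low (up to 7.40% exact) and C1q-high classes (up to 7.55%). Its carriers were 8 CD8 barcodes, 1 CD4 barcode and 1 with both tags. Trbv12-2 (ENSMUSG00000094525, 41118864 to 41119364; Tcrb-V5.1) was found in 6 barcodes, 5 anti-CD40 C1q-low and 1 anti-CD40 C1q-high. Its neighbour Trbv12-1 (Tcrb-V5.2) was found in 2, both anti-CD40 C1q-low, so all 8 barcodes of the Trbv12 family were in the anti-CD40 library.

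Trbv20 (ENSMUSG00000076476, 41188273 to 41188977, Tcrb-V15) was found in 6 barcodes with 8 UMIs. It was the only Trbv segment found in C1q-low and C1q-high barcodes of both libraries. Its counts are out of 101 isotype and 376 anti-CD40 Cd3 barcodes, so equal counts are not equal shares. Trbv20 was found in 1 isotype C1q-low, 1 isotype C1q-high, 2 anti-CD40 C1q-low and 1 anti-CD40 C1q-high barcode. It was also found in 1 isotype barcode with 10 to 19 C1q UMIs. Its carriers were 3 CD4 barcodes, 1 CD8 barcode, 1 with both tags and 1 with neither. The remaining segments of the 10 most frequent were Trbv2 (5 barcodes, 8 UMIs), Trbv1 (4 barcodes), Trbv31, Trbv14 and Trbv17 (3 each), and Trbv12-1. The last was tied with Trbv13-3 (Tcrb-V8.1), Trbv15, Trbv16 and Trbv29, each found in 2 barcodes, and Trbv13-1 was found in 1. Members of the Trbv12 and Trbv13 families are alike in sequence, so their split by segment is uncertain.

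**Figure D2:**
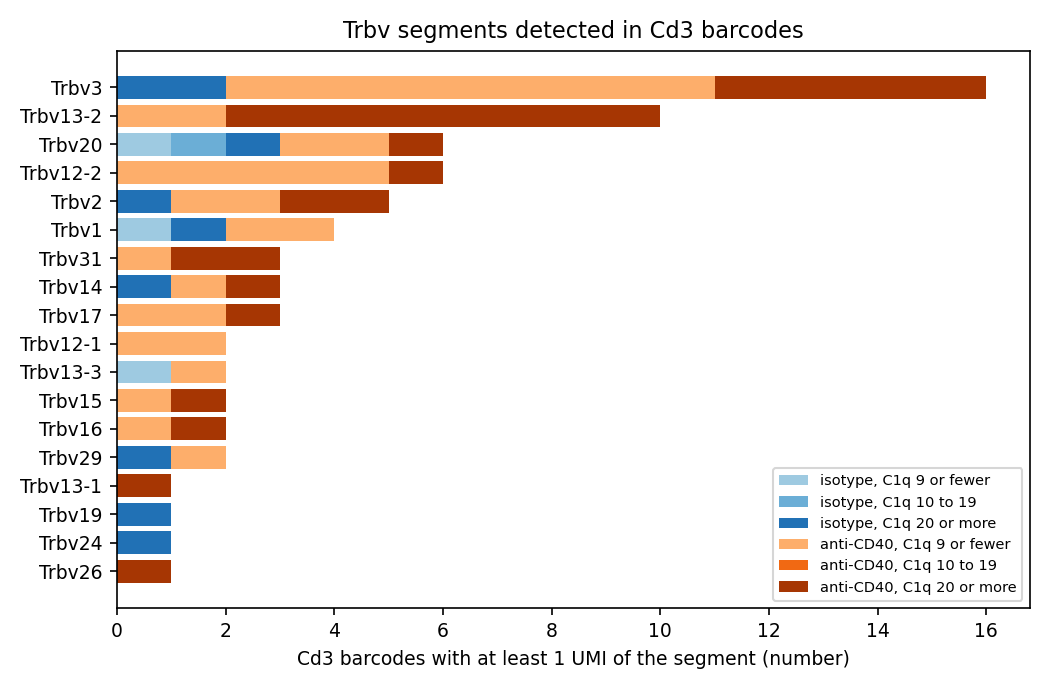
Number of Cd3 barcodes (x axis) with at least 1 UMI of each of the 18 Trbv segments detected (y axis), stacked by library and by C1q class. Trbv3 reached 16 barcodes, 14 of them in the anti-CD40 library, which has 376 Cd3 barcodes against 101 in the isotype library.

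The spread of beta segments was wide. Among anti-CD40 C1q-low barcodes with exactly 1 Trbv segment, Trbv3 took 9 of 30 (30.0%, 14.7 to 49.4). Among the anti-CD40 C1q-high ones Trbv13-2 took 6 of 19 (31.6%, 12.6 to 56.6), and over all isotype ones Trbv20 took 3 of 13 (23.1%, 5.04 to 53.8). The Simpson index, the chance that a pair of such barcodes drawn at random shares a segment, was 0.110, 0.129 and 0.0641. In the anti-CD40 library 13 Trbv segments were seen in single-segment C1q-low barcodes and 10 in C1q-high ones, 7 of them in both. Across the 35 segments the barcode numbers of these classes had a Pearson correlation of 0.560 and a Spearman correlation of 0.453, as a description over genes of 1 library that share its depth and free RNA. Only 16 of the 35 were found in either class, and the joint zeros of the rest raise both values. They therefore do not show alike segment use. The most frequent segment differed between the classes, Trbv3 in the C1q-low and Trbv13-2 in the C1q-high class.

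More than 1 beta segment per barcode was seldom read, but most carriers could not have shown it, so how rare it was cannot be told. A single Trbv UMI, which can show 1 segment only, was all that 10 of 13 isotype and 43 of 53 anti-CD40 Trbv carriers held. More than 1 Trbv segment was found in 0 of 13 isotype carriers, 1 of 31 anti-CD40 C1q-low carriers and 3 of 22 anti-CD40 C1q-high carriers. The single C1q-low case held Trbv12-2 and Trbv15 with 3 Trav segments, Trav14-2, Trav4-4-dv10 and Trav5-4. The C1q-high cases held Trbv12-2 with Trbv13-2, Trbv3 with Trbv31, and Trbv13-2 with Trbv17, each segment at 1 UMI.

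Alpha segments were detected more thinly over a larger gene family. Of 128 Trav segments 34 were found in Cd3 barcodes, 19 in the isotype library, 24 in the anti-CD40 library and 9 in both, and 94 were found in none. All 34 were among the 112 that RefSeq classes as functional, and none of the 16 pseudogenes was found. Of the 34, 19 were found in 1 barcode, 5 in 2 and 10 in 3 or more. Much of the Trav locus, on chromosome 14, is repeated in near-identical copies, named with d and n, and reads could have been split or lost between copies. Summed by family, Trav6 was found in 10 barcodes, Trav3, Trav9 and Trav16 in 7 each, and Trav12, Trav13 and Trav14 in 6 each. Of 23 Trav families 15 were detected.

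The most frequent alpha segments were Trav9-4 (ENSMUSG00000096678, chromosome 14, 53676196 to 53676628), Trav12-3 (ENSMUSG00000095958, 53621752 to 53622245) and Trav3-3, each in 5 barcodes with 8, 7 and 6 UMIs. Trav9-4 was found in 1 isotype C1q-low, 2 anti-CD40 C1q-low and 2 anti-CD40 C1q-high barcodes. Trav12-3 and Trav3-3 were each found in 1 anti-CD40 C1q-low and 4 anti-CD40 C1q-high barcodes. Next came Trav16n (4 barcodes, 9 UMIs), Trav6-7-dv9 and Trav6-5 (4 each), and Trav16, Trav4-4-dv10, Trav8-2 and Trav13-1 (3 each). Trav16 and Trav16n are copies of one segment and should be read together. The leading alpha segment of the anti-CD40 library, Trav3-3, took 5 of 41 single-segment barcodes (12.2%, 4.08 to 26.2).

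**Figure D3:**
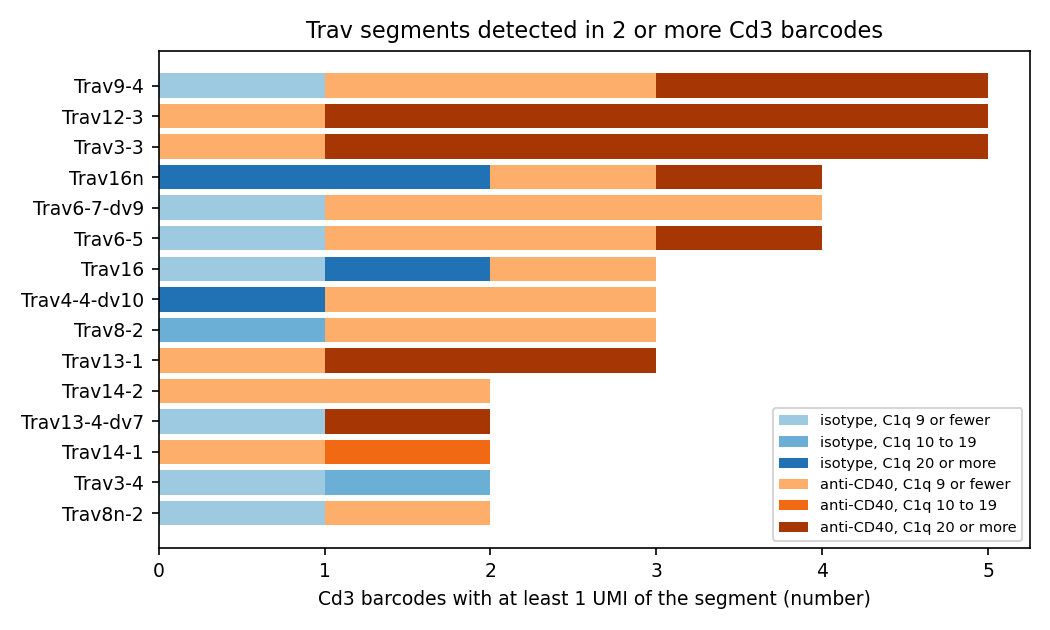
Number of Cd3 barcodes (x axis) with at least 1 UMI of each of the 15 Trav segments found in 2 or more of them (y axis), stacked by library and C1q class. No Trav segment passed 5 barcodes, and another 19 Trav segments were found in 1 barcode each.

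The segments that mark invariant T cells were not detected in Cd3 barcodes. Trav11 and its copies Trav11d and Trav11n, which invariant natural killer T cells use, and Trav1, which mucosal-associated invariant T cells use, had 0 UMIs in all 477. Over the 175 anti-CD40 C1q-low barcodes, 3 counts would be 1.71% and the exact upper limit is 2.09%. Over the 48 isotype ones these are 6.25% and 7.40%. Since most V transcripts of these barcodes were not captured, these limits are on barcodes with a UMI and not on cells of those types. Among all barcodes that passed the filter, Trav11 was found in 1, an isotype barcode with no CD3 UMI.

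A Trav and a Trbv segment were read together in 11 barcodes, 9 of them in the anti-CD40 library, and no pairing was seen in 3 or more. Trbv3 was in 4 of the 11, all anti-CD40 C1q-low CD8 barcodes, with Trav6-7-dv9 in 2, Trav19 in 1 and Trav6-5 in 1. Trbv13-2 was paired with Trav9-4 and with Trav12-3, each in 1 anti-CD40 barcode. Trbv20 (2 UMIs) was paired with Trav16 (4 UMIs) in an isotype C1q-high CD4 barcode and with Trav8-2 in an isotype barcode with neither coreceptor tag.

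The libraries' antibody panel gave a second readout of beta segment use. Of its tags, 1 is named for V beta 5.1 and 5.2, the older names of the proteins of Trbv12-2 and Trbv12-1, and 1 for V beta 8.1 and 8.2, those of Trbv13-3 and Trbv13-2. In C1q-low barcodes of both libraries with exactly 1 Trbv segment, the 6 carriers of Trbv12-1 or Trbv12-2 had 38, 19, 10, 9, 8 and 1 UMIs of the V beta 5 tag. The 27 carriers of another Trbv segment had 0 or 1. Per 10000 tag UMIs the medians were 46.8 (6.57 to 232) and 0 (0 to 7.73). The 4 carriers of Trbv13-2 or Trbv13-3 had 39, 18, 12 and 0 UMIs of the V beta 8 tag, and the 29 others had 0 to 3. Per 10000 tag UMIs these were 72.1 (0 to 286) and 0 (0 to 17.6). In 5 of the 6 and in 3 of the 4 the tag was thus above its level in every other carrier.

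The 16 Trbv3 carriers, which neither antibody should bind, had 0 or 1 V beta 5 tag UMIs and 0 to 6 V beta 8 tag UMIs. The 8 Trbv13-2 carriers of the anti-CD40 C1q-high class had 57, 36, 26, 24, 20, 10, 8 and 4 V beta 8 tag UMIs. In C1q-high barcodes the separation had exceptions. An anti-CD40 carrier of Trbv14 had 74 V beta 5 and 2 V beta 8 tag UMIs, and an isotype carrier of Trbv14 had 30 and 85. Anti-CD40 carriers of Trbv31 and Trbv20 had 32 and 20 V beta 8 tag UMIs. Over all C1q classes, 1 of the 6 Trbv12 carriers (16.7%) was above every other carrier per 10000 tag UMIs for V beta 5, and 5 of the 10 Trbv13-2 and Trbv13-3 carriers were for V beta 8.

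**Figure D4:**
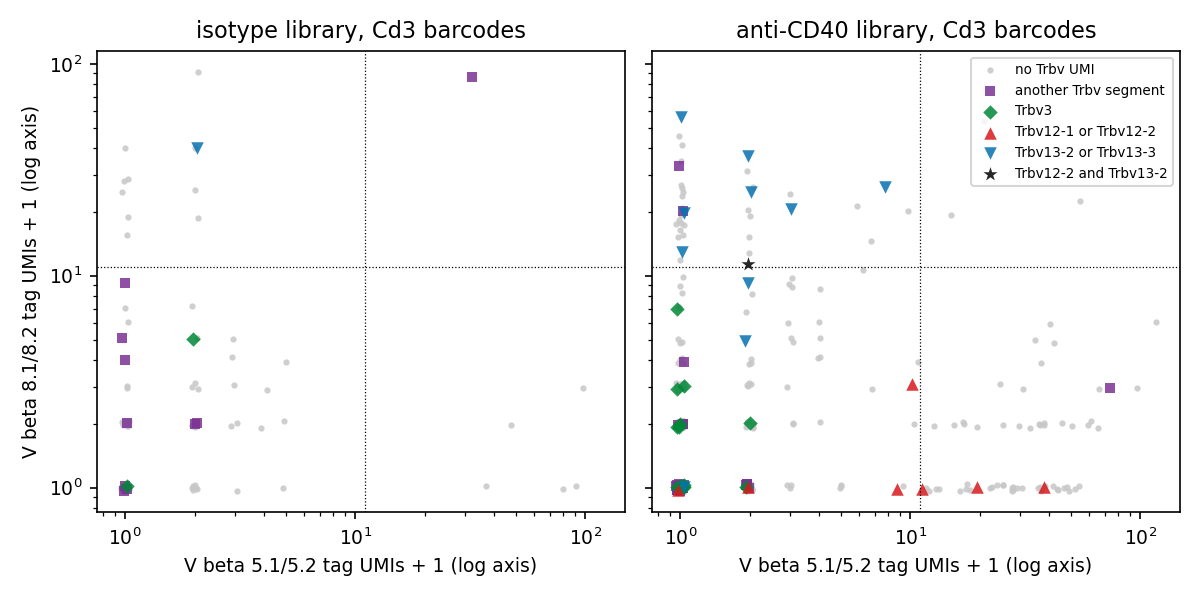
UMIs of the V beta 5.1/5.2 tag (x axis) and the V beta 8.1/8.2 tag (y axis) in each Cd3 barcode, plus 1, on log axes with a jitter of up to 4%, by library and by the Trbv segment found. Dotted lines mark 10 tag UMIs. Trbv12 carriers lie low and spread from the origin to the right, and most Trbv13-2 and Trbv13-3 carriers lie high and to the left. Of the 8 anti-CD40 barcodes with Trbv12-1 or Trbv12-2, 5 lie below 10 V beta 5 tag UMIs. Trbv3 carriers reach 1 V beta 5 and 6 V beta 8 tag UMIs.

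The tags marked far more barcodes than the transcripts. With tag-high defined as 10 or more UMIs, 71 of the 477 Cd3 barcodes were V beta 5 tag-high (14.9%, 11.8 to 18.4), and the matching transcript was found in 3 of the 71 (4.23%, 0.880 to 11.9). For V beta 8 these were 54 of 477 (11.3%, 8.62 to 14.5), with a matching transcript in 9 of the 54 (16.7%, 7.92 to 29.3). Read the other way in the anti-CD40 library, 5 of 8 barcodes with Trbv12-1 or Trbv12-2 were below the V beta 5 cut. Below the V beta 8 cut were 3 of its 11 barcodes with Trbv13-2 or Trbv13-3. In barcodes with no CD3 UMI, between 0.678% and 1.09% were V beta 5 tag-high and between 0.862% and 1.75% V beta 8 tag-high, over library and C1q class. No C1q-low Cd3 barcode was high for both tags, and 1 of 47 isotype and 3 of 187 anti-CD40 C1q-high ones were. With no CD3 UMI, 6 of 1328 and 3 of 1246 C1q-low and 3 of 914 and 7 of 2204 C1q-high barcodes were, isotype first.

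By tag, V beta 5 shares were larger in the anti-CD40 library in both C1q classes, within overlapping intervals, and V beta 8 shares had no common direction at this cut. V beta 5 tag-high barcodes were 2 of 48 (4.17%, 0.509 to 14.2) and 24 of 175 (13.7%, 8.99 to 19.7) in the C1q-low class, isotype first, and 4 of 47 (8.51%, 2.37 to 20.4) and 39 of 187 (20.9%, 15.3 to 27.4) in the C1q-high class. V beta 8 tag-high barcodes were 8 of 48 (16.7%, 7.48 to 30.2) and 10 of 175 (5.71%, 2.77 to 10.3) in the C1q-low class, and 4 of 47 (8.51%, 2.37 to 20.4) and 30 of 187 (16.0%, 11.1 to 22.1) in the C1q-high class. Intervals of the libraries overlapped in each of these 4 comparisons. With 20 tag UMIs as the cut, the V beta 8 shares were 10.4% and 1.71% in the C1q-low and 8.51% and 9.09% in the C1q-high class. With 20 per 10000 tag UMIs as the cut they were larger in the isotype library in both classes, at 18.8% and 8.0% in the C1q-low and 8.51% and 8.02% in the C1q-high class. The V beta 5 shares at that cut were 6.25% and 15.4% in the C1q-low and 8.51% and 13.4% in the C1q-high class. Median tag UMIs were 1886 and 1606 in C1q-low and 12757 and 9205 in C1q-high Cd3 barcodes. A fixed cut of tag UMIs therefore does not compare the C1q classes alike. The anti-CD40 V beta 5 share was larger in the C1q-high class at 10 tag UMIs and smaller there at 20 per 10000. The coreceptor mix moved with the library: V beta 5 tag-high barcodes were 55 of 275 anti-CD40 CD8 barcodes (20.0%, 15.4 to 25.2) but 0 of 26 anti-CD40 CD4 barcodes (up to 13.2% exact), and in the isotype library 3 of 39 (7.69%, 1.62 to 20.9) and 1 of 33 (3.03%, 0.0767 to 15.8). V beta 8 tag-high barcodes were 30 of 275 anti-CD40 CD8 barcodes (10.9%, 7.48 to 15.2) and 7 of 26 anti-CD40 CD4 barcodes (26.9%, 11.6 to 47.8), against 6 of 39 (15.4%) and 4 of 33 (12.1%) in the isotype library.

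**Figure D5:**
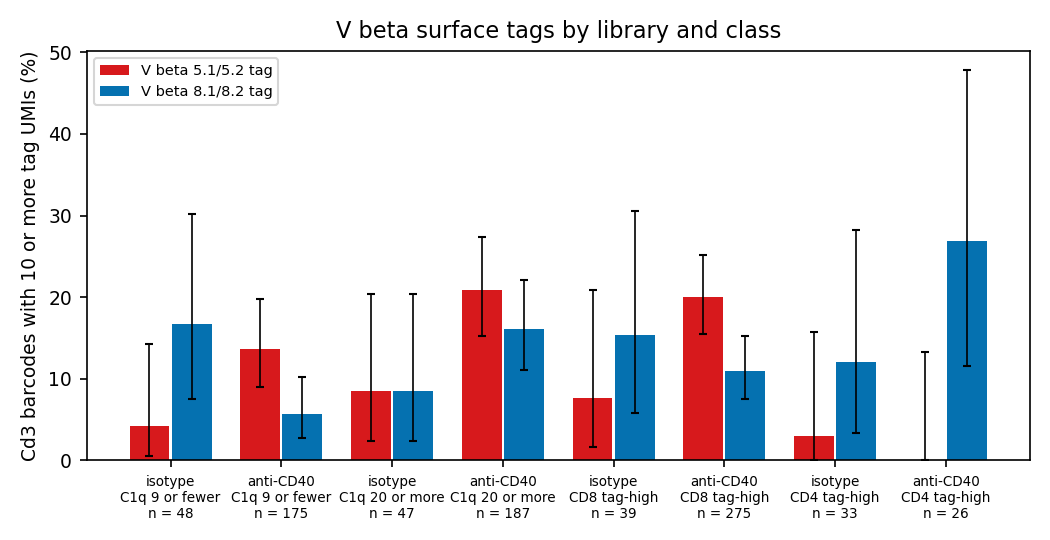
Share of Cd3 barcodes (%, y axis) with 10 or more UMIs of the V beta 5.1/5.2 or the V beta 8.1/8.2 tag, by library and C1q class and, over all C1q classes, by coreceptor tag. Bars are exact 95% intervals for counting error. V beta 5 reached 20.0% of anti-CD40 CD8 barcodes and was at 0 in the 26 anti-CD40 CD4 barcodes.

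All 5 Trav9-4 carriers and all 5 Trav12-3 carriers were V beta 8 tag-high, a pattern picked out after the values were seen and so given as a description. As 1 barcode held both segments, these were 9 barcodes. The V beta 8 tag UMIs were 46, 29, 18, 14 and 12 in the Trav9-4 carriers, and 39, 29, 23, 21 and 20 in the Trav12-3 carriers. A Trbv segment was read in 2 of the 9, Trbv13-2 in each. The Trav12-3 carrier with 21 also had 52 V beta 5 tag UMIs, so it was high for both tags. The count depends on the cut, with 6 of the 9 at or above 20 tag UMIs (66.7%, 29.9 to 92.5) and 7 of the 9 at or above 20 per 10000 tag UMIs (77.8%, 39.99 to 97.2). Of the 54 other Trav carriers 8 were V beta 8 tag-high (14.8%, 6.62 to 27.1), and of the other 468 Cd3 barcodes 45 were (9.62%, 7.10 to 12.7). The 5 carriers of Trav3-3 included none. The 9 barcodes came from both libraries and both C1q classes, 1 from the isotype C1q-low class, 3 from the anti-CD40 C1q-low class and 5 from the anti-CD40 C1q-high class.

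The other genes of the receptor were set beside the V segments in C1q-low barcodes, as sums per library. Of 28 genes listed, 21 reached 30 UMIs over both libraries, and no V segment did. With 1.5-fold as the cut on the log2 ratio, which has 10 CPM added to both values, 7 of the 21 were higher in the anti-CD40 library, against 22.9% of the 5948 genes that reached 30 UMIs, and 1 was lower, against 11.7%. The 7 were Cd8a, Cd8b1, the gamma constant genes Tcrg-C2 and Tcrg-C4, the CD3 genes Cd3d and Cd3g, and Lat, an adaptor of receptor signalling. The lower gene was Trdc, the delta constant gene. The median log2 ratio of the 21 was 0.23, against 0.12 over all 5948. Cd3d, Cd3e and Cd3g chose the barcodes, so their values are part of the rule. Without them 5 of 18 genes were higher and 1 lower, and the median log2 ratio was 0.11. TMM scaling lowered log2 ratios by 0.13, and then 3 of the 21 were higher (Cd8a, Cd8b1 and Tcrg-C2). The share of all genes called under TMM is not given, so that count stands without a background.

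The alpha and beta constant genes all lay within the 1.5-fold cut. Trac was at 416 and 394.5 CPM, a ratio of anti-CD40 to isotype of 0.948 (0.780 to 1.16). Trbc1 was at 561 and 703 CPM (1.25, 1.06 to 1.48) and Trbc2 at 1141 and 1371 CPM (1.20, 1.07 to 1.35). The counting interval of the ratio includes 1 for Trac and lies above 1 for Trbc1 and Trbc2. Summed over segments, Trav was at 41.0 and 26.2 CPM (0.640, 0.327 to 1.33) and Trbv at 12.6 and 29.5 CPM (2.34, 0.839 to 9.05), and both intervals include 1. Cd8a was at 107 and 480 CPM (4.48, 3.17 to 6.53). Cd4, the coreceptor gene of helper T cells, had 14 and 9 UMIs, at 44.1 and 7.38 CPM (0.167, 0.0638 to 0.415). Trat1, of the same list, had 18 and 11 UMIs, at 56.8 and 9.02 CPM (0.159, 0.0678 to 0.355). Cd4 and Trat1 had fewer than 30 UMIs over both libraries, so neither was among the genes that could be called. Ptcra, Rag1, Rag2 and Dntt, used while thymocytes build their receptors, had 0 UMIs in both libraries.

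V segments of the gamma chain, which pairs with delta in gamma-delta T cells, were more frequent in the anti-CD40 library. They summed to 6 UMIs in 4 isotype C1q-low barcodes and 98 UMIs in 44 anti-CD40 ones, at 18.9 and 80.4 CPM (4.25, 1.88 to 11.9). Tcrg-C2 was at 34.7 and 124 CPM (3.57, 1.94 to 7.31), whereas Trdc was at 78.8 and 26.2 CPM (0.333, 0.191 to 0.586), in 7 of 48 and 6 of 175 barcodes. In the anti-CD40 C1q-low class gamma V segments were thus read in 44 barcodes and delta constant transcripts in 6, beside 31 barcodes with a Trbv segment. Of the 44 with a gamma V segment, 37 were CD8 barcodes by tag, which is 29.4% (21.6 to 38.1) of the 126 CD8 barcodes of that class, against 1 of 18 (5.56%, 0.141 to 27.3) in the isotype library.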

How the data were processed

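Per the file headers, the deposited matrices come from Cell Ranger 6.0.1. They hold raw UMI counts, as whole numbers without normalization, for 32285 genes and 198 tags. The submitters' processing notes list Cell Ranger 3, Seurat 3, mm10 and GRCh38 with no roles. The isotype library held 4908 barcodes with 26847799 gene and 18695756 tag UMIs, and the anti-CD40 library 7087 with 53736318 and 28053242. Tag libraries were read from the same matrices.

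The filter kept barcodes with 200 or more genes and below 10% mitochondrial UMIs, and no doublet caller was run. Shares carry Clopper-Pearson intervals, and CPM ratios carry exact conditional binomial intervals (scipy 1.17.1). A prior of 10 CPM was added for log2 ratios, and TMM and median-of-ratios scaling used edgeR 4.0.16 and numpy 2.4.6. With 1 library per group, no test was possible. Steps were tested on simulated data.

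All 163 V genes were matched by symbol to RefSeq GRCm38.p6, which gave positions, classes and older names; no sequence is printed. The segments named were the 10 of each locus found in most barcodes, leading segments of any class, those read by the tags and those of invariant T cells. The segments, gene lists and classes were chosen with earlier results of these data known. Alternatives covered filters, cuts, scaling, thinning, family sums and the tag cut.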

Additional observations from a re-analysis of the deposited data

Results flagged for a closer look

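V segments were also found in barcodes that the mitochondrial filter removed and that no comparison above uses. In the anti-CD40 library 59 barcodes with at least 2 CD3 UMIs were removed, and they held 5 Trav or Trbv UMIs in 4 barcodes. In the isotype library 20 were removed, with 3 such UMIs in 3 barcodes.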

How the results depend on the processing

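Of 171 alternative values for the shares, numbers and calls above, 136 stayed within the counting interval or within 1.5 times the value given, and 35 moved. Intervals of small counts are wide (5.04 to 53.8% for 3 of 13), so staying within them says little about stability. A single library's share has no sign, but the order of the libraries turned in 2 of 32 comparisons of shares under an alternative. These were any V segment in C1q-low barcodes from 2 UMIs (isotype 6.25%, anti-CD40 4.57%) and V beta 8 in C1q-high barcodes from 20 per 10000 tag UMIs (8.51% and 8.02%). Shares with any V segment, in the order isotype C1q-low, isotype C1q-high, anti-CD40 C1q-low and anti-CD40 C1q-high, were 13.1%, 18.1%, 18.2% and 11.7% from 1 CD3 UMI. They were 0.0%, 4.26%, 8.88% and 0.0% after thinning, and 6.25%, 14.9%, 4.57% and 2.14% when a segment counted from 2 UMIs. From 2 UMIs the classes held 3, 8, 7 and 3 segments. No anti-CD40 carrier in the C1q-low (0.0%) or C1q-high class (0.0%) then had more than 1 Trbv segment. That was fixed in advance, as each Trbv segment of such barcodes was at 1 UMI. The leading shares from 2 UMIs were 66.7% (Trbv20, 2 of 3), 75.0% (Trbv3, 3 of 4) and 0.0% (Trbv13-2, 0 of 2). With 500 genes and 5% mitochondrial UMIs as limits, 6 and 8 segments were found in the isotype C1q-low and C1q-high classes, against 13 and 16. With C1q limits of 2 and 50, 21 were found in the anti-CD40 C1q-low class, against 32. Receptor genes called higher were 3 under TMM and 3 at 2-fold, and those called lower 3 with no minimum and 2 in V carriers alone. The shares of all genes called under these settings are not given, so these counts cannot be set against a background. The match of the V beta 5 tag to Trbv12 carriers was 16.7% over all C1q classes, against 83.3%. Alternatives for the tag cut and without the CD3 genes were chosen after seeing the data. V beta 8 in anti-CD40 C1q-high barcodes was 22.99% from 5 tag UMIs, 9.09% from 20 and 8.02% from 20 per 10000 tag UMIs. It was 1.71% from 20 UMIs in the C1q-low class. V beta 5 was 13.4% in anti-CD40 C1q-high barcodes from 20 per 10000, and 0.0% in isotype C1q-low barcodes limited to CD8. Most V carriers held 1 UMI, which limits every count of segments. No paired analysis was possible because each group is 1 library.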

Other observations

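The tag named for the gamma-delta receptor is listed as a pair of features, and these differed. In C1q-low barcodes with Trac, the first had a median of 12 UMIs in the isotype and 4 UMIs in the anti-CD40 library, and medians of 0 in those with Trdc. The second had medians of 0 in barcodes with Trac, and reached 40 UMIs and 42 UMIs in those with Trdc. For this reason neither was used to sort barcodes into gamma-delta or alpha-beta T cells.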
